A study of Rattus norvegicus with 6 samples.

Results

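The complement components and regulators examined in cultured rat astrocytes expressing mutant TDP-43 were 9 genes: C1qa, C1qb, C1qc, C1s, C2, C4b, Cfb, Cfp and Serping1. They were chosen as the probes whose platform gene symbol is one of these 9 names. Each gene had 1 probe, so the set is 9 probes of 13793 named ones (9 of 13337 named genes), and all 9 entered the test of 7580 genes. Primary astrocytes of 2 genotypes were compared. The M337V group carried GFAP-tTA and TRE-TDP43 M337V, in which tTA, made under the astrocyte promoter of Gfap, drives TDP-43 carrying M337V from the TRE promoter unless doxycycline (Dox) is present. The tTA control group carried GFAP-tTA alone. Both genotypes had Dox withdrawn for 3, 4 or 6 days before RNA was taken, and each genotype and day was 1 Illumina beadchip array (3 arrays per group, 6 in all). No label ties the 3 arrays of a genotype to separate cultures or animals, so a p-value measures only how the genotype difference varied between the 3 days, a spread that may be technical.

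Complement is a cascade of plasma and tissue proteins that marks surfaces for uptake or lysis. The classical pathway starts when C1q, built from A, B and C chains, binds a target and switches on the proteases C1r and C1s, which cleave C4 and C2. The alternative pathway runs on factor B and is stabilised by properdin, and C1 inhibitor blocks C1r and C1s. In the brain of mice, C1q comes mainly from microglia and tags synapses for removal, while astrocytes are known to make several of the later components.

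Values are log2 of background-corrected, quantile-normalized signal unless stated otherwise, and a gene counts as detected on an array where its detection p is under 0.05. Mean signals ran from 377 to 554 per array, and between 43.8% and 48.3% of 22523 probes were detected. Arrays of one genotype correlated at 0.979 to 0.992 over the genes tested, and arrays of different genotypes at 0.932 to 0.971. The rat Tardbp probe differed by 0.23 ± 0.10 (SE; limma adjusted p = 0.188), and whether it reads the transgene was not tested. The 13 astrocyte markers tested were detected on every array, apart from Gjb6 on 1 control array, with a list mean of 10.96 to 11.25 in controls and 11.32 to 11.34 in M337V. Gfap stood at 15.02 and 15.07 in the respective groups.

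Of the 9 complement genes, 7 were higher in M337V and none was lower at an adjusted p under 0.05 (limma with the day as a block, Benjamini-Hochberg over 7580 genes). Over all genes tested, 9.68% were called higher and 9.68% lower, or 19.4% in either direction. At an unadjusted p under 0.05, still none of the 9 was lower, where 1464 of 7580 genes were. C1qa and C1qc entered the test through their M337V arrays alone, and C1qb, detected on 1 control array, could not enter without them. The C1q chains could thus only be high there, so these counts describe the set and support nothing. When only probes detected on all 6 arrays were fitted, 6 of the 9 genes were tested and 5 were higher (C1s, C2, Cfb, Cfp and Serping1), as were 9.58% of 6335 genes. The median difference was 2.43 on the log2 scale over the 9 genes, against -0.05 over all genes tested, and 1.44 over the 6 genes in the restricted fit, against -0.06. The calls were C1qa, C1qb, C1qc, C2, Cfb, Cfp and Serping1. On 6 of the 9 genes the M337V arrays all lay above the control arrays, as did 14.4% of all genes, and on none did they all lie below, as did 19.6%. Serping1, C1s and C4b overlapped. As these are bulk cultures, more cells of a type and more RNA per cell cannot be told apart.

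**Figure D1:**
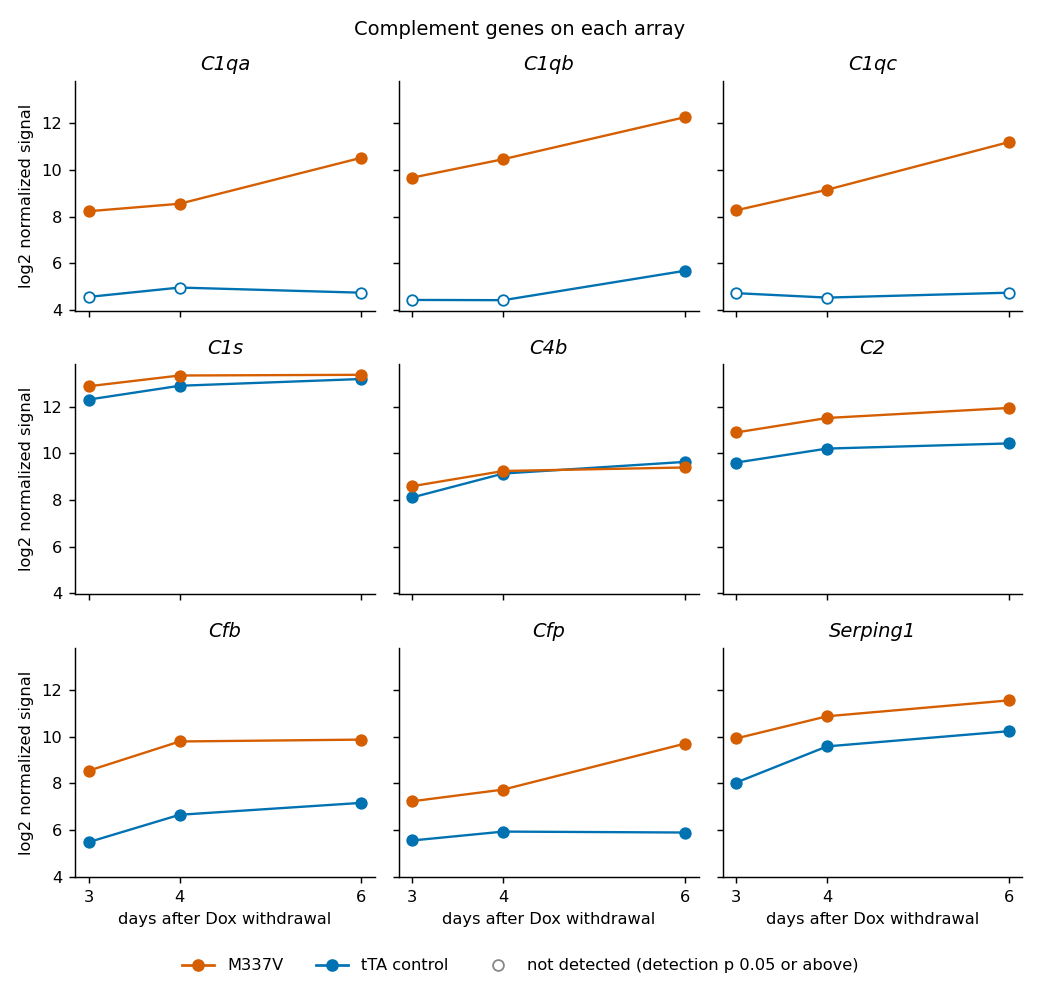
Log2 normalized signal of the 9 complement genes (y) by days after Dox withdrawal (x), 1 point per array, M337V in orange and tTA control in blue, open where the array did not detect the probe. The C1q chains are open in 8 of 9 control points and climb to between 10.52 and 12.26 in M337V by day 6, while the C1s and C4b lines of the genotypes run close together.

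The 3 chains of C1q showed the largest differences of the 9 genes. C1qb, the B chain, read 4.43 on day 3, 4.42 on day 4 and 5.68 on day 6 in controls, and 9.67, 10.46 and 12.26 in M337V. In unprocessed signal this was 89, 93 and 124 against 681, 1664 and 5823. The lowest M337V array lay 3.99 above the highest control array, and only the day 6 control array detected the probe. The fitted log2 difference of C1qb was 5.95 ± 0.25 (adjusted p = 0.000446), or at least 47.1-fold with the undetected control arrays at their lowest detected signal.

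C1qc, the C chain, read 4.72, 4.53 and 4.74 in controls and 8.27, 9.15 and 11.19 in M337V. No control array detected it, so only a bound can be given, at least 23.2-fold higher (adjusted p = 0.0041). C1qa, the A chain, read 4.56, 4.96 and 4.74 in controls and 8.23, 8.55 and 10.52 in M337V. It too was undetected on all 3 control arrays and was at least 17.2-fold higher (adjusted p = 0.00362). Both passed the filter on dim probes through M337V alone, and C1qb could not pass without M337V. The p-values of all 3 chains therefore add nothing to the bounds. Fitted log2 differences, which are no bounds where controls were undetected, were 4.35 for C1qa, 5.95 for C1qb and 4.88 for C1qc, and without background correction 2.48, 4.00 and 2.90.

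The 3 chains are consecutive protein-coding genes on chromosome 5, in the order C1qb, C1qc and C1qa (GRCr8 gene table). Promoter windows of 250 bases before and 50 after the gene start (RefSeq, GRCr8) were examined for 4 of the 9 genes: C1qa, C1qb, C4b and Cfp. Those of C1qa (chr5:154419884-154420183, minus strand) and C1qb (chr5:154407778-154408077, minus strand) are shown as the windows of C1q chains. That of Cfp, which rose, is not shown. That of C4b (chr20:4201729-4202028, plus strand) is shown as the one gene of the 4 whose difference did not pass. Capitals mark letters that match a searched motif.

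C1qa: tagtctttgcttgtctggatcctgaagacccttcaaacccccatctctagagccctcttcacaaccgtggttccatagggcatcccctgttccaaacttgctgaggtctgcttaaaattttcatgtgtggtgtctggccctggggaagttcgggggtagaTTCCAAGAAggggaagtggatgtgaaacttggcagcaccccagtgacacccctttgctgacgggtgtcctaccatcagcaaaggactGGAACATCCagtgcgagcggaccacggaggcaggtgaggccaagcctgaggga
C1qb: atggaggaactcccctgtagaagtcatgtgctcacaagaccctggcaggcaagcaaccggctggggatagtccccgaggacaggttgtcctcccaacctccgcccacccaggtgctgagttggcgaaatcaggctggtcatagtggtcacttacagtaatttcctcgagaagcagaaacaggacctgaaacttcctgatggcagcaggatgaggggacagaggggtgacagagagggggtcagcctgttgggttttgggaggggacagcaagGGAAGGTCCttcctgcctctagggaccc
C4b: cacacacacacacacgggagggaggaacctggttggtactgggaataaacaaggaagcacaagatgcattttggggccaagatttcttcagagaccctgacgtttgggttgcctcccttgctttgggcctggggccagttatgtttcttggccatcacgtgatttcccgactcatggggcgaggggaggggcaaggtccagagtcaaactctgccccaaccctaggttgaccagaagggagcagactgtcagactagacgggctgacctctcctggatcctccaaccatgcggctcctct

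In all, 5 motifs were searched on both strands. A kappaB-like match (GGANNTTCC) was found in 2 of the 4 windows, C1qa and C1qb, and 4.09% of 33469 rat promoter windows of the same length hold one. In C1qa it spans -3 to 6 and in C1qb 23 to 31, counted from the first base of the gene as 1 with no 0. A STAT match (TTCNNNGAA) was found in C1qa at -90 to -82, and 8.87% of windows hold one. None of the 4 windows held the PU.1 letters GAGGAAGT (2.42% of all windows), the ISRE core GAAANNGAA (9.71%) or the C/EBP letters TTGCNNAA (10.6%). The windows of Cfp, which rose, and of C4b, which did not pass, held no match to any of the 5 motifs. No 2 matches overlap, and a match is letters only.

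Of the later proteins of the classical pathway, C2 rose and C1s and C4b did not pass the test. C1s, the protease of the C1 complex that cleaves C4 and C2, read 12.30, 12.89 and 13.18 in controls and 12.87, 13.33 and 13.36 in M337V. The groups overlap, since the day 3 M337V array lies below the day 4 and day 6 controls. Its difference of 0.39 ± 0.12 did not pass (adjusted p = 0.0701), with a 95% interval of 0.11 to 0.68, although it passed in 4 of 16 alternatives (adjusted p from 0.0032 to 0.346 over all 16).

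C4b encodes complement C4, whose cleaved form attaches to target surfaces. It read 8.11, 9.13 and 9.63 in controls and 8.59, 9.24 and 9.39 in M337V, and the groups overlap over nearly their whole range. C4b was 0.48 higher in M337V on day 3, 0.11 higher on day 4 and 0.24 lower on day 6 (-0.24). The fitted difference of 0.12 ± 0.16 did not pass (adjusted p = 0.643), with a 95% interval of -0.27 to 0.51. Rats carry a second C4 gene, C4a, not analysed here, and whether the C4b probe also binds its transcript was not tested.

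C2 supplies the protease part of the classical C3 convertase. It read 9.60, 10.20 and 10.42 in controls and 10.89, 11.51 and 11.94 in M337V, with the lowest M337V array 0.47 above the highest control. The fitted log2 difference was 1.37 ± 0.10 (adjusted p = 0.00168), or 2.59-fold, and the daily difference stayed between 1.29 and 1.52.

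Cfb and Cfp, of the alternative pathway, rose. Cfb, factor B, is the protease of the alternative C3 convertase and read 5.48, 6.65 and 7.16 in controls and 8.54, 9.79 and 9.87 in M337V. All 6 arrays detected it, and the M337V arrays lay at least 1.39 above every control. Cfb rose by 2.97 ± 0.12 on the log2 scale (adjusted p = 0.000424), or 7.83-fold. Cfp encodes properdin, which stabilises that convertase. Its level was 5.55, 5.93 and 5.89 in controls and 7.23, 7.73 and 9.70 in M337V, and the day 6 M337V array stood well above the other two. Cfp rose by 2.43 ± 0.43 on the log2 scale (adjusted p = 0.0175), or 5.38-fold. The rise was 1.74 without day 6 and 1.45 without background correction.

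Serping1 encodes C1 inhibitor, the serpin that inactivates C1r, C1s and plasma kallikrein. It read 8.03, 9.58 and 10.23 in controls and 9.92, 10.87 and 11.55 in M337V. The groups overlap because the day 3 M337V array lies 0.31 below the day 6 control, while on each day the M337V array was the higher. Compared within days, Serping1 rose by 1.5 ± 0.15 on the log2 scale (adjusted p = 0.00354), or 2.83-fold. Without the day as a block the call was lost (adjusted p = 0.161).

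C2 and Cfb are adjacent genes on chromosome 20, and 18 protein-coding genes lie between C2 and C4b (GRCr8 gene table, looked up after the values were seen). Of 60 other genes within 5 places of a member, 28 were tested, with a median difference of 0.10. Where 9.68% of all genes were higher and 9.68% lower, 3 of the 28 were higher and 1 lower. Named after their values were seen, those were Ptpn6 (3.02 ± 0.12), a phosphatase of blood cells, Slc44a4 (0.96 ± 0.18), Nelfe (0.39 ± 0.10) and Luzp1 (-0.61 ± 0.12). C1r, the protease that activates C1s and its direct neighbour on chromosome 4, read 12.18 in controls and 12.40 in M337V and did not pass (0.22 ± 0.11, adjusted p = 0.227).

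**Figure D2:**
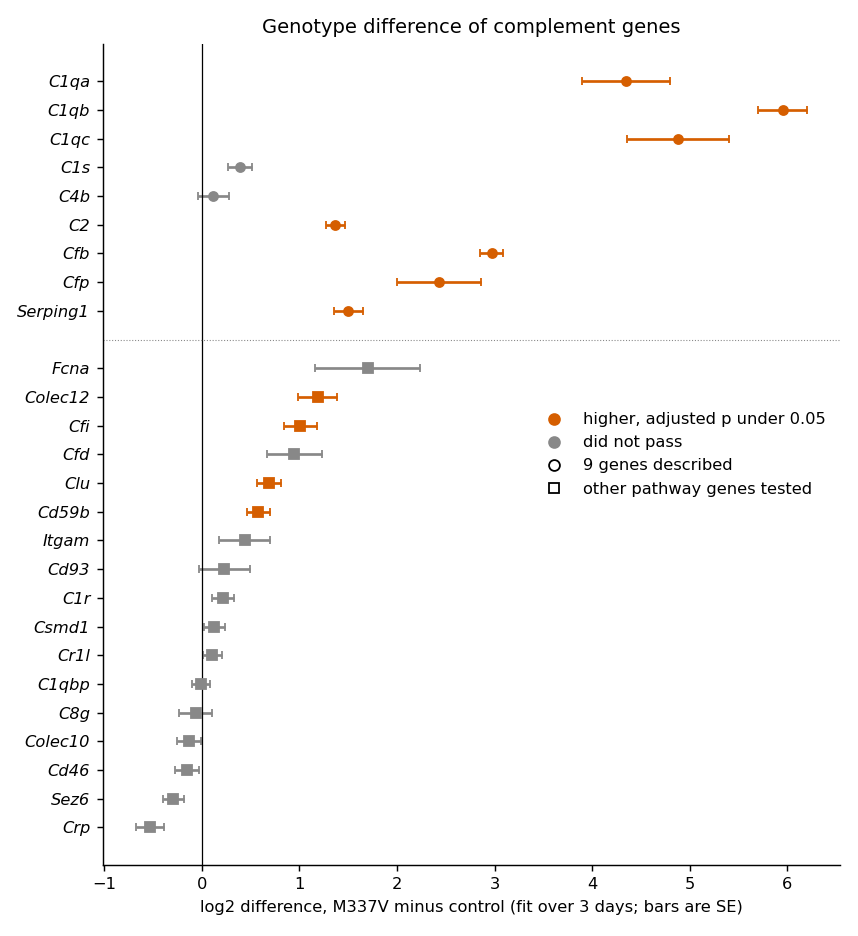
Log2 difference, M337V minus control, fitted over 3 days (x, bars are SE) for the 9 complement genes (circles) and 17 other pathway genes tested (squares), in orange where higher at an adjusted p under 0.05. The C1q chains lie farthest right. C1qa, C1qc, Fcna and Csmd1 were undetected in all controls and are plotted at fitted values (bounds 4.10, 4.54, 1.22 and 0.01). C1qb and Cfi were detected in 1 control (bounds 5.56 and 0.88).

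A wider list of the pathway held 57 gene names, of which 38 were named on the array and 17 were detected on enough arrays to be tested. In it 4 of the 17 genes were higher and none lower (limma), with a median of 0.22. At an unadjusted p under 0.05, 2 were lower, where 1464 of 7580 genes were. Over all genes tested, 9.68% were higher and 9.68% lower, the shares to set beside this and the later lists. Colec12, a scavenger receptor with a collectin domain, was 2.29-fold higher (1.19 ± 0.20). Cfi, the protease that cuts C3b and C4b, was at least 1.85-fold higher with 1 control array detecting it (1.01 ± 0.17). Clu, clusterin, which binds the terminal complex, was 1.61-fold higher (0.69 ± 0.12), and Cd59b, which blocks that complex at the membrane, was 1.49-fold higher (0.58 ± 0.12). The adjusted p of the 4 lay between 0.0158 and 0.0271. The number higher was 1 without day 3, 1 without day 4 and 2 without the day as a block. Cfi could not enter the test without its M337V arrays, so its p-value adds nothing to its bound. The count of 4 therefore describes the list and supports nothing. Among probes detected on all 6 arrays, 12 genes of the list were tested and 4 were higher (Colec12, Cd59b, Clu and Cfd), as were 9.58% of 6335 genes. Fcna, a ficolin of the lectin pathway, was undetected in controls and at least 2.33-fold higher without passing (adjusted p = 0.0871). Cfd, the protease that activates factor B, differed by 0.95 ± 0.28 (adjusted p = 0.0724).

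Among the other tested genes of the pathway, the membrane regulators Cd46 (-0.15 ± 0.12) and Cr1l (0.11 ± 0.10) did not pass. Itgam, a chain of complement receptor 3, was at 0.44 ± 0.26 and Cd93 at 0.23 ± 0.26, and neither passed. C8g, of the terminal complex, was at -0.06 ± 0.17. Of the 21 genes left out of the test, Vsig4, Cd55, C4bpa and C6 were detected on no array, and C3ar1, the receptor for C3a, on 1 M337V array only. C3 itself was not analysed here.

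Of 5 tested genes whose proteins share the globular C1q domain, 3 fell and 1 rose, with a median of -0.78. Col8a1, a short-chain collagen, fell by 3.26 on the log2 scale (SE 0.11, adjusted p = 0.000249), C1qtnf1 by 1.02 (SE 0.15) and C1qtnf5 by 0.78 (SE 0.14), while C1ql1 rose by 0.48 ± 0.10. Of 11 transcription factors and feedback genes known to act on complement genes, 3 rose and none fell (median 0.04). They were the interferon regulatory factors Irf7 (0.84 ± 0.10) and Irf1 (0.64 ± 0.10), and Nfkbia (0.79 ± 0.12), the inhibitor that NF-kappaB induces. Cebpb (-0.28 ± 0.09, adjusted p = 0.0915) and Stat3 (0.04 ± 0.10) did not pass, and Spi1, which encodes PU.1, was detected on no array.

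Among 11 phagocytic partners, 4 fell and 1 rose (median -0.28). Mfge8, a bridging protein for dying cells, fell by 0.98 (SE 0.12), the integrin chain Itgb5 by 0.72 (SE 0.15), the engulfment adaptor Gulp1 by 0.62 (SE 0.09) and Pros1 by 0.59 (SE 0.10). Cd47, the signal that inhibits uptake, rose by 0.64 ± 0.12. Of 3 contact system and fibrinolysis genes tested, Plat, tissue plasminogen activator, rose (0.56 ± 0.10), and Plau (0.87 ± 0.26) and Bdkrb2 (undetected in M337V, adjusted p = 0.135) did not pass.

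**Figure D3:**
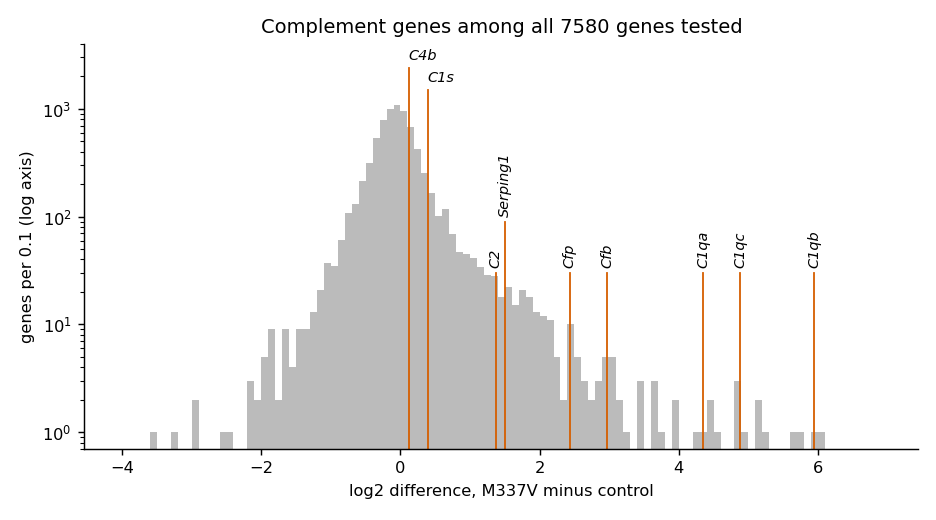
Number of genes (y, log axis) by log2 difference, M337V minus control (x, bins of 0.1), over all 7580 genes tested, with orange lines at the 9 complement genes. C4b and C1s lie inside the main body, and the C1q chains lie in its far right tail at fitted values, with bounds of 4.10 to 5.56.

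The genotype difference of each day rests on 1 array per genotype and has no test. The same 7 genes were at least 2-fold higher in M337V on day 3, on day 4 and on day 6, and none was 2-fold lower. Among all genes detected on either array, 4.40%, 4.33% and 5.35% were at least 2-fold higher on these days and 2.35%, 1.81% and 2.24% at least 2-fold lower. The median of the 9 genes was 1.90, 1.80 and 2.71. On day 3, C1qb was at least 25.3-fold higher, C1qa 9.32-fold and C1qc 9.58-fold, and on day 6 the ratios were 95.5-fold for C1qb and at least 47.0-fold and 74.6-fold for C1qa and C1qc.

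For Cfp, detected on all arrays, the log2 difference went from 1.68 on day 3 to 3.81 on day 6. For Cfb, C2 and Serping1 they went from 3.07, 1.29 and 1.90 to 2.71, 1.52 and 1.32. A slope of the difference per day was also fitted, which for the C1q chains rests on control values of which 1 of 9 was detected. It was 0.96 ± 0.08 for C1qc, 0.76 ± 0.15 for C1qa, 0.75 ± 0.12 for Cfp and 0.42 ± 0.10 for C1qb, and the other 5 genes lay between -0.23 and 0.08. In limma no slope of the 9 genes passed (adjusted p from 0.12 to 0.813), as for 0% of all genes. At an unadjusted p under 0.05 there were 4 positive slopes and 1 negative (C4b), where 9.74% of all genes passed. The slope calls depended on the processing. In 5 of 11 alternatives, among them a variance trend, median scaling and the deposited values, the slopes of C1qa, C1qb, C1qc and Cfp passed, where 2.49% to 3.25% of all genes did. That of C1qc also passed in a further alternative, with 0.045% of all genes.

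**Figure D4:**
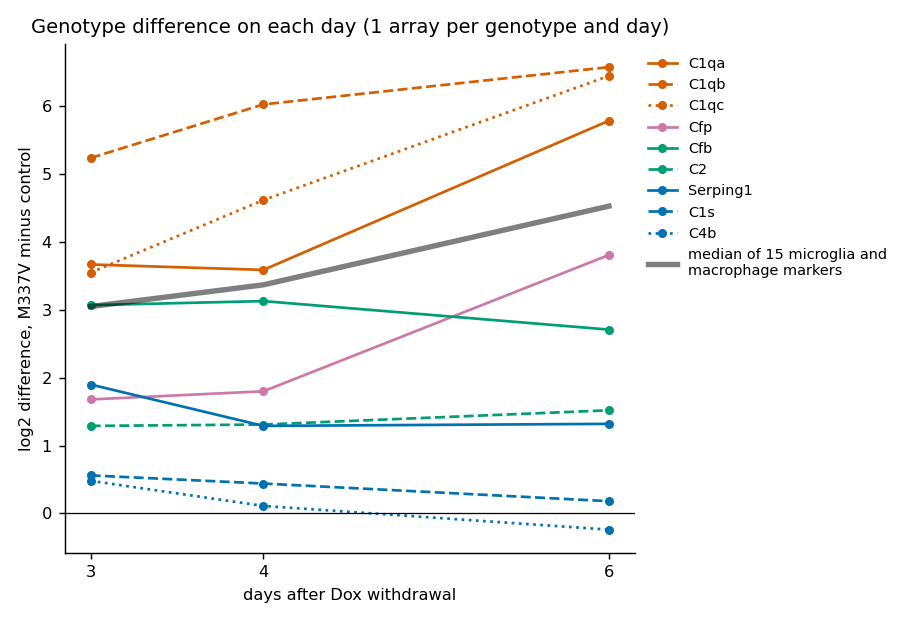
Log2 difference, M337V minus control (y), on each day after Dox withdrawal (x), 1 line per complement gene and a thick grey line for the median of 15 microglia and macrophage markers. Cfp ends higher on day 6 than on day 3, as do the marker median (3.05 to 4.53) and the C1q chains, which apart from C1qb on day 6 are set against undetected control values, and C4b crosses 0.

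Levels were also compared between days after Dox withdrawal, over both genotypes together. Day 6 exceeded day 3 at an adjusted p under 0.05 for 5 of the 9 genes and the reverse held for none (limma; none at an unadjusted p under 0.05 either), where 1.56% of all genes were higher on day 6 and 0.963% lower. Those 5 were Serping1 (1.91 ± 0.19, adjusted p = 0.0258), Cfb (1.5 ± 0.15), C2 (0.93 ± 0.13), C1qb (1.92 ± 0.31, adjusted p = 0.048, with its day 3 control undetected) and C4b (1.16 ± 0.19, adjusted p = 0.0498). Serping1, Cfb and C2 passed in all 11 alternatives, C4b in 8 and C1qb in 7. In controls alone, Serping1 gained 2.20 from day 3 to day 6, Cfb 1.68, C4b 1.52, C1s 0.88, C2 0.82 and Cfp 0.34, and C1qa and C1qc were undetected on every day. In M337V cultures the gains were 2.92 for C1qc, 2.58 for C1qb, 2.47 for Cfp, 2.29 for C1qa, 1.62 for Serping1 and 1.32 for Cfb.

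Markers of other cells moved with the genotype in the same arrays. Of 15 microglia and macrophage markers tested (complement genes left out), 13 were higher in M337V and none lower, with a median of 3.65, or 3.21 with undetected control values at the lowest detected signal. Their mean level ran from 4.89 to 5.55 in controls and from 8.38 to 9.42 in M337V, and their summed unprocessed signal from 1669 to 2060 and from 8391 to 29893. Of the defining markers, Aif1 (at least 56.1-fold higher) and Trem2 (at least 27-fold) were detected on 1 control array each, and Tyrobp (at least 4.33-fold higher), Ptprc (at least 1.95-fold) and Cx3cr1 (adjusted p = 0.0549) on none. P2ry12 was detected on 1 M337V array and no control, and Tmem119 on 1 array of each group. Of all 15 markers, 8 were detected on no control array and Fcer1g, Lcp1 and Olfml3 on 3 of 3. C1s, C2, C4b, Cfb, Cfp and Serping1 were also detected on 3 of 3 control arrays, C1qb on 1 and C1qa and C1qc on none. All markers but Fcer1g, Lcp1 and Olfml3 needed M337V arrays to enter the test, so the counts describe the list and support nothing. Of those 3 markers, Fcer1g (5.73 ± 0.16) and Lcp1 (5.28 ± 0.12) were higher. Olfml3 went the other way without passing (-0.63 ± 0.19, limma adjusted p = 0.0766). The part of the 15 markers in the complement differences was not tested.

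Other lists moved too. Of 8 oligodendrocyte lineage markers 6 were higher (median 1.98), of 6 ependymal markers 5 (median 1.70) and of 7 neuron markers 4 (median 0.55, or 0.44 with undetected control values at the lowest detected signal), with none lower. In the fibroblast and meningeal list 5 of 8 were lower and 2 higher (median -0.80), and of 4 pericyte genes 3 were lower (median -0.60). Endothelial genes went both ways, 2 higher and 1 lower of 4. Of 13 astrocyte markers 3 were higher and 1 lower (median 0.13). Aqp4, the water channel of astrocyte endfeet, was higher by 0.79 ± 0.15, S100b by 0.93 ± 0.14 and Gjb6 by 0.61 ± 0.14, and the receptor Fgfr3 was lower (-0.85 ± 0.10). Sox10, Ugt8, Dnali1, Syt1, Snap25, Ina, Lum, Igf2, Vwf, Esam and Gjb6, all called higher, needed M337V arrays to enter the test. The counts of genes higher therefore describe these lists and support nothing. The part of these lists in the complement differences was not tested.

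**Figure D5:**
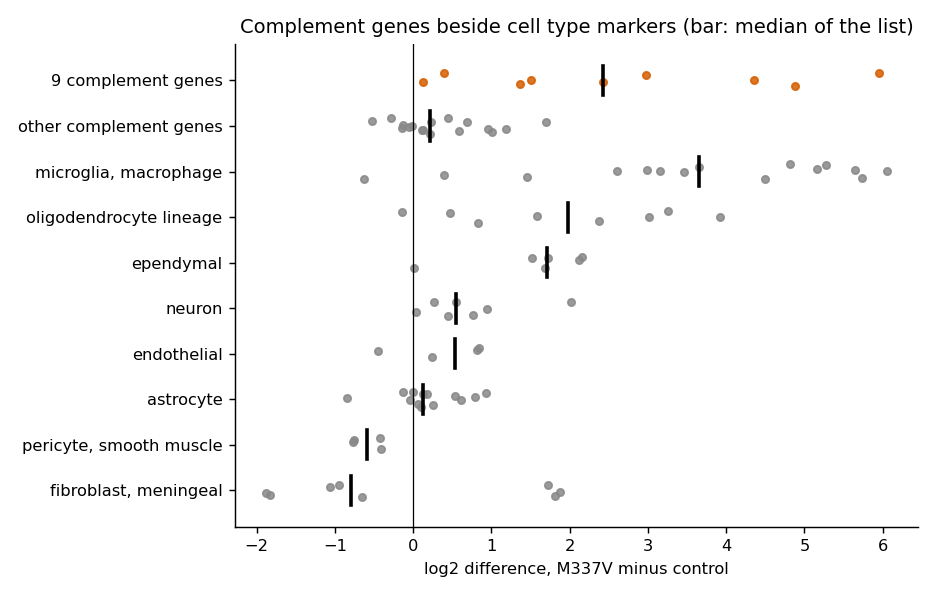
Log2 difference, M337V minus control (x), of each gene tested (points) in the set of 9 complement genes (orange), the other complement genes and 8 lists of cell type markers (grey), with a black bar at each list's median. The medians are 2.43 for the 9 genes, 0.22 for the other complement genes, 3.65 (3.21 with bounds) for microglia and macrophage markers and 0.13 for astrocyte markers.

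The genes with the most similar profile over the 6 arrays differed within the set. Likeness was measured as the Euclidean distance between log2 profiles, each minus its own mean, against 7571 other genes. Nearest to C1qb were Ctss (0.79), Aif1 (1.04) and Fcer1g (1.15), where the median distance of all genes was 7.67. Nearest to C1qa were Ncf1 (0.39), Coro1a (0.72) and RT1-DMb (0.91), and the same 3 genes were nearest to C1qc, at 1.01 to 1.05. Ccl6 (0.51), Ccl3 (0.53) and Adap2 (0.73) were nearest to Cfp. For Cfb the list was Spag6l (0.75), Ptpn6 (0.94) and Ifi47 (1.0), and for Serping1 it was Tmem176b (0.58), Efhd1 (0.68) and Tf (0.72). C2 lay nearest to Vstm2b (0.22), Spef2 (0.27) and Dnaaf4 (0.28). C4b lay nearest to Acsbg1 (0.25), Cyp2d4 (0.35) and Dio3 (0.39), and C1s to Tnik, Ctdspl2 and Acvr2b (0.18 to 0.20). Within the set, the closest pairs were C1s with C4b (0.62) and C1qa with C1qc (0.92), and the most distant was C1qb with C4b (7.32). With 6 arrays in 2 genotypes these distances are a description, and those of the C1q chains include undetected control values. The median distance to all genes ran from 1.04 for C1s to 7.67 for C1qb and tended to be larger for genes with larger differences.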

How the data were processed

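RNA of cultured rat astrocytes was labelled and hybridised to Illumina beadchips, per the labels' protocols, and the submitters' processing notes name GenomeStudio. Per the file headers, the deposited table gives an unnormalized mean signal intensity and a detection p-value per probe and array. Differences between arrays in the deposited log2 values match those of log2 signal less the array's upper quartile (within 0.00215), with a value per probe subtracted whose origin is unknown. Their column medians lay between -0.15 and 0.07.

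Gene names came from the platform annotation in GEO, and 8730 of 22523 are unnamed here. The fits used R 4.3.3 and limma 3.58.1, whose neqc corrected the background by normexp from the detection p-values (offset 16). Arrays were quantile-normalized and log2 taken. Probes detected at p under 0.05 on at least 3 of 6 arrays were kept and the brightest probe stood for a gene (7580 genes). The offset and background step set the differences of dim genes. Genotype was fitted with the day as a factor (2 residual degrees of freedom, prior 3.46), a slope per day with 1 (prior 4.68), and Benjamini-Hochberg adjustment ran over all genes. The day, per the labels, pairs the arrays. Same-day deviations correlated at 0.44, 0.08 and 0.42, and every array correlated best with that of its own day. Precision is limited by having 6 arrays.

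"At least N-fold" sets undetected arrays of the dimmer group at that array's lowest detected signal if higher than their own. Fits were tested on simulated data with normal noise and no detection floor, which cannot show how undetected control values act on them. The 9 genes and all lists were chosen with earlier results of these data known. Named were all 9, every called gene of the wider list, up to 4 called genes per other list, Tardbp and 3 nearest profiles per gene. Other genes are given beside them to show what did not pass. The alternatives changed background, scaling, offset, filters, probe choice, block, variance model and days.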

Additional observations from a re-analysis of the deposited data

How the results depend on the processing

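Against 16 alternatives, 7 complement genes were higher in 11, 8 in 3 (C1s added) and none was lower in any. Of all genes, 4.76% to 12.7% were higher over the 16. The 3 with 8 complement genes had 12% (no background correction), 11.3% (offset 50) and 12.7% (variance trend). The count of 5 came among probes detected on all 6 arrays, where C1q could not be tested. That of 6 came without the day as a block, where Serping1 no longer passed (limma adjusted p = 0.161). The block changed no other call among the 9 genes. Over the 141 values of the 9 genes, 136 kept their side of the threshold, 4 more passed (C1s) and 1 was lost (Serping1). C4b ran from -0.06 to 0.30. Among probes detected on all 6 arrays, 4 of the 6 members tested were at least 2-fold apart on each day. The share of all such genes was not counted.

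Of all genes, 734 were higher and 734 lower, against 1121 lower with the deposited values, 441 with median scaling and 468 without the day as a block. Leaving out a day gave 361 to 551 higher and 227 to 432 lower. Of called genes 50% were higher, but median scaling gave 64.4%, cyclic loess 59.2%, the deposited values 39.7% and the filter to probes detected everywhere 41.2%. The median of all genes stayed between -0.08 and 0.01 in these. The wider complement list had 4 higher, 2 without the replicate block and 1 to 4 with a day left out, and 1 lower with the deposited values, without background correction, with a linear day and with a variance trend. Slopes passed for 4 of the 9 genes with the deposited values (2.49% of all genes), without background correction (3.25%), with median scaling (2.57%), with offset 50 (2.89%) and with a variance trend (2.55%), and for 1 at detection p under 0.01 (0.045%), against 0 and 0%. The day effect passed for 9 genes with median scaling (8.23% of all genes), 3 without the filter (1.03%) and 3 with robust variance (2.3%), against 5 (2.52%). The cause of these changes was not tested.

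Depth here means signal over background: C1qa and C1qc have no control level, and C1qb has 1.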
